A study of Mus musculus with 3 samples.

Results

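The genes described here are 9 mouse genes of the integrated stress response: Atf4, Atf5, Ddit3, Trib3, Asns, Chac1, Sesn2, Ppp1r15a and Ddit4. They were chosen by symbol among the 27998 genes of the count tables, and all 9 were present and had at least 1 UMI. A UMI is a molecular tag that counts each captured RNA molecule once. The data are droplet single-cell RNA sequencing of the 3' ends of transcripts, from CD11b+ cells that magnetic beads had enriched out of fetal mouse brain at E18.5. There were 3 libraries, 1 per group. The first came from the Gzmb-cko group, with the genotype label Ncr1-cre;gzmbf/f, after polyIC, that is poly(I:C), a synthetic double-stranded RNA that mimics viral infection. The second came from Ncr1-cre with polyIC and the third from Ncr1-cre with saline. All 3 groups thus have Ncr1-cre, a Cre active in NK cells and in some other innate lymphocytes. Gzmb encodes the cytotoxic protease granzyme B. The design text names groups of pregnant mice. The sources used here do not state dose or day of injection, how many fetuses were pooled, or whether the genotype is the dam's or the fetus's. No library combines Gzmb-cko with saline, so an effect of genotype and a changed response to polyIC cannot be told apart.

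In the integrated stress response, kinases that sense different stresses phosphorylate the translation factor eIF2α. General protein synthesis slows, while mRNAs with certain upstream reading frames, Atf4 among them, are translated more. The ATF4 protein then raises transcription of genes for amino acid supply, tRNA charging and, if the stress lasts, cell death. Because ATF4 is controlled in large part at translation, its mRNA level is not a direct readout of the pathway. Microglia are the resident macrophages of the brain parenchyma, and they settle there before birth.

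By role, Atf4, Atf5 and Ddit3 (CHOP) encode bZIP transcription factors. Asns encodes asparagine synthetase, Chac1 an enzyme that degrades glutathione, and Sesn2 a leucine sensor that restrains mTORC1. Ddit4 encodes another mTORC1 inhibitor. Trib3 encodes a pseudokinase that feeds back on ATF4, and Ppp1r15a (GADD34) encodes the phosphatase subunit that reverses eIF2α phosphorylation. ATF4 binds a composite C/EBP-ATF element with the core TGATGNAA. That core was searched on both strands in RefSeq promoter windows of build GRCm38.p6, from 250 bases before to 50 after each gene's start. It was found for 3 of the 9 members, against 4.51% of 27025 genes, or 3.97% of 32851 windows. The 3 stretches are shown because they carry this core of the ATF4 element. Capitals mark the match, and in Chac1 and Trib3 it lies on the opposite strand.
Asns, minus strand, chr6:7693210-7693268: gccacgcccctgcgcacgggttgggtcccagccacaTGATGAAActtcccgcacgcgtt
Chac1, plus strand, chr2:119351013-119351092: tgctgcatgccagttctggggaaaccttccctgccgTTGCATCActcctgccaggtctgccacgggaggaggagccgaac
Trib3, minus strand, chr2:152344028-152344057: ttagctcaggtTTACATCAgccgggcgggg
Relative to the RefSeq start of transcription, the match began at position -23 in Asns, -193 in Chac1 and 15 in Trib3. The GENCODE gene models, used for the gene positions below, start Asns and Trib3 at other bases. By those models the match lies within Asns and upstream of Trib3. A match is a description of the sequence and not a binding site.

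On build GRCm38, Ppp1r15a (ENSMUSG00000040435) lies on the minus strand at chr7:45522916-45526268 and overlaps Tulp2 on the other strand. Atf4 (ENSMUSG00000042406) lies on the plus strand at chr15:80255184-80257541, Atf5 (ENSMUSG00000038539) on the minus strand at chr7:44812256-44816658 and Asns (ENSMUSG00000029752) on the minus strand at chr6:7675169-7693254. On the other strand Atf5 overlaps Nup62 and Il4i1, and Ddit3 overlaps Mars. Values refer to whole genes.

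Each library held 85442198 to 105574073 UMIs in 13820 to 15306 barcodes. Barcodes had 500 UMIs or more in both polyIC libraries and 3133 or more in the saline library. After removal of cells under 500 genes, cells over 10% mitochondrial UMIs and doublets, 12821 Gzmb-cko, 10478 Ncr1-cre polyIC and 11761 saline cells were left. Pairs of libraries shared 63 to 71 barcodes. Among the cells left, Gzmb itself had 2 UMIs in 1 Gzmb-cko cell, 127 UMIs in 6 Ncr1-cre polyIC cells and 61 UMIs in 4 saline cells. Cells with an Ncr1 UMI numbered 0, 3 and 3 in those libraries, too few to check the deletion. Cells were assigned by RNA of defining genes: microglia (P2ry12 without Mrc1), border macrophages of the meninges and choroid plexus (Mrc1 and Pf4), monocytes (Ccr2 and Ly6c2), choroid plexus epithelium (Ttr at 5% of UMIs or more) and neurons (Stmn2 and Dcx). Microglia numbered 4980 in the Gzmb-cko library, 4203 in the Ncr1-cre polyIC library and 4965 in the saline library, and neurons 106, 303 and 101 in the same libraries. Tmem119, a microglial gene the assignment did not use, was at 263 to 350 CPM (UMIs of a gene scaled to 1000000 per class and library) in microglia, 127 to 148 CPM in border macrophages and 9.25 to 44.4 CPM in neurons. Microglial marker RNA, summed over 10 genes, was at 7642 to 8393 CPM in border macrophages and 11311 to 14550 CPM in microglia. The microglia also carried other cells' RNA. Hemoglobin made up 2.66% of their UMIs in the Gzmb-cko library, 5.66% in the Ncr1-cre polyIC library and 9.89% in the saline library. The neutrophil genes S100a8 and S100a9 summed to 1136, 1861 and 3688 CPM in those 3 libraries. Ratios between libraries were therefore also computed without cells in which hemoglobin reached 5% or these neutrophil genes 1% of UMIs.

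**Figure D1:**
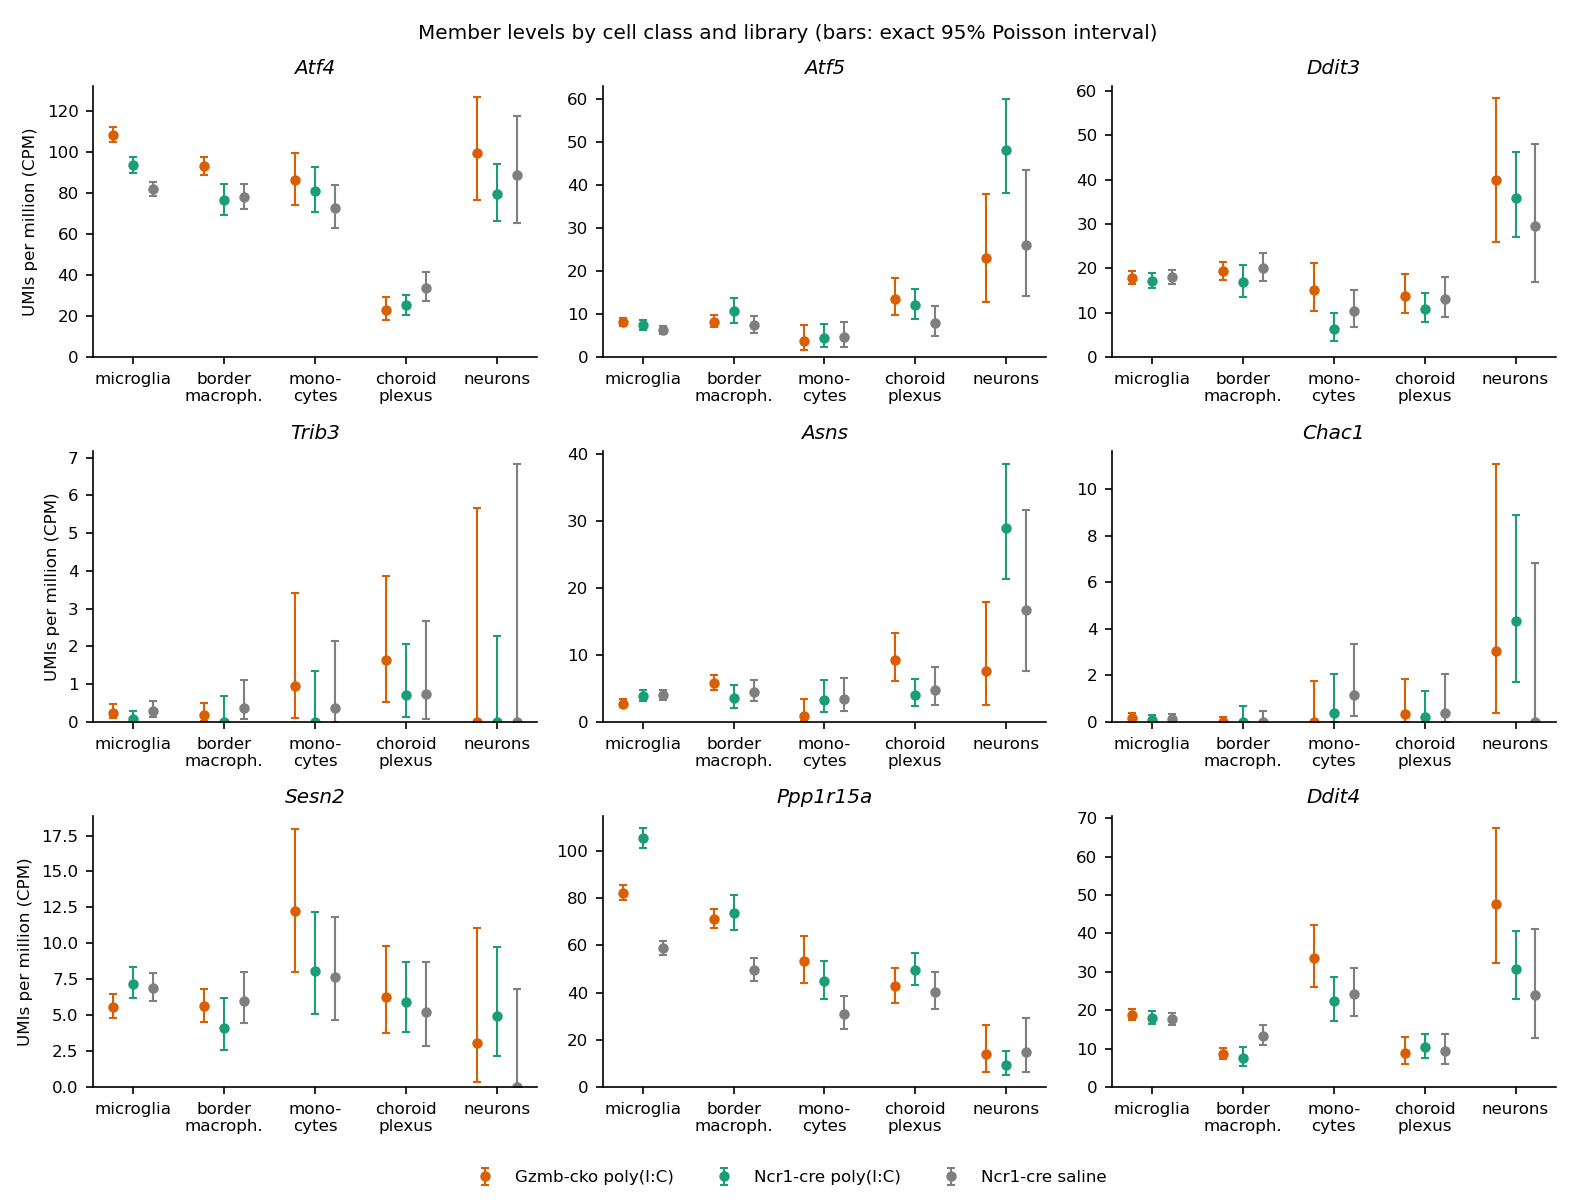
CPM of the class total (vertical axis) for each of the 9 genes in 5 cell classes, with 1 point per library and bars for exact 95% Poisson intervals. Ppp1r15a is highest in the microglia of the Ncr1-cre polyIC library, at 105 CPM, while Atf5 and Asns are highest in the neurons of that library.

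In microglia, Ppp1r15a was the member whose level differed most between libraries among those above 10 CPM, followed by Atf4. Ppp1r15a was at 82.3 CPM (95% interval 79.2 to 85.4) in the Gzmb-cko library, 105 CPM (101 to 110) in the Ncr1-cre polyIC library and 58.8 CPM (56.0 to 61.7) in the saline library. All intervals on levels and ratios cover counting error only, and since each group is a single library, neither treatment nor genotype can be tested. The 3 intervals did not overlap. Ppp1r15a was 1.79-fold higher (1.69 to 1.91) in Ncr1-cre polyIC than in saline microglia, and its ratio of Gzmb-cko to Ncr1-cre polyIC was 0.781 (0.739 to 0.824). Without the cells with hemoglobin or neutrophil RNA these ratios were 1.71 and 0.756.

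Atf4, which encodes the central transcription factor, was at 109 CPM (105 to 112) in Gzmb-cko, 93.7 CPM (89.9 to 97.7) in Ncr1-cre polyIC and 82.2 CPM (78.9 to 85.6) in saline microglia. The Gzmb-cko library was thus the highest for Atf4, in contrast to Ppp1r15a. The ratio of Gzmb-cko to Ncr1-cre polyIC was 1.16 (1.10 to 1.22), and that of Ncr1-cre polyIC to saline 1.14 (1.08 to 1.21). The median gene above 10 CPM differed by a log2 ratio of 0.17 between Ncr1-cre polyIC and saline microglia. Scaling by TMM, which centres on most genes, put the Atf4 ratio at 1.02 and the Ppp1r15a ratio at 1.60 for that pair.

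The remaining members differed less or were at lower levels. Ddit3 stayed between 17.1 and 17.9 CPM in the 3 libraries, and Ddit4 between 17.8 and 18.9 CPM, with every ratio interval spanning 1. Atf5 was at 8.13 CPM in Gzmb-cko, 7.32 CPM in Ncr1-cre polyIC and 6.21 CPM in saline microglia, with a ratio of Gzmb-cko to saline of 1.31 (1.08 to 1.59). Sesn2 was at 5.60, 7.20 and 6.91 CPM in those libraries, with a ratio of Gzmb-cko to Ncr1-cre polyIC of 0.777 (0.628 to 0.962). Trib3 had 8, 2 and 8 UMIs and Chac1 6, 2 and 4 UMIs, too few to compare.

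Asns was at 2.75 CPM in Gzmb-cko, 3.87 CPM in Ncr1-cre polyIC and 3.98 CPM in saline microglia. Few cells carried these UMIs: the 1% of cells with most Asns held 64.4, 78.5 and 85.8% of them, and a single saline cell held 21. Asns was also uneven over the cell cycle. Cells with UMIs of 2 or more cycle genes had 3.45 CPM in Gzmb-cko, 6.67 CPM in Ncr1-cre polyIC and 6.83 CPM in saline microglia, against 2.06, 2.43 and 2.25 CPM in cells with none. The ratio of Gzmb-cko to saline was 0.691 (0.518 to 0.919) over all microglia and 0.913 (0.514 to 1.64) in cells with no cycle gene UMI. It turned to 1.22 when only the cells with UMIs of 2 or more cycle genes were left out, and to 1.39 under a stricter microglial definition. Cells of no class with S100a8 and S100a9 at 1% of UMIs or more had Asns at 36.2, 26.1 and 22.4 CPM in those libraries. The part of neutrophil RNA in the Asns ratios was not tested.

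Of the 4 members that averaged 10 CPM or more in microglia, 1 was higher by 1.5-fold or more in Ncr1-cre polyIC than in saline, namely Ppp1r15a, against 4.07% of 7749 genes, and none was lower, against 1.5% of genes. None passed that fold between Gzmb-cko and Ncr1-cre polyIC, where 0.258% of genes were higher and 1.72% lower. The same held between Gzmb-cko and saline, where 1.06% of genes were higher and 1.72% lower. The median log2 ratio of these 4 members was 0.06 for Gzmb-cko over Ncr1-cre polyIC, against -0.04 for all genes. For Ncr1-cre polyIC over saline it was 0.10, against 0.17 for all genes. Microglia were also thinned to 2000 UMIs each, which left out 142 Gzmb-cko, 428 Ncr1-cre polyIC and 0 saline cells with fewer UMIs. Of the cells that could be thinned, 62.6% in Gzmb-cko, 59.3% in Ncr1-cre polyIC and 66.9% in saline showed no member. No Gzmb-cko or Ncr1-cre polyIC cell showed 4 members, and 1 saline cell did.

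**Figure D2:**
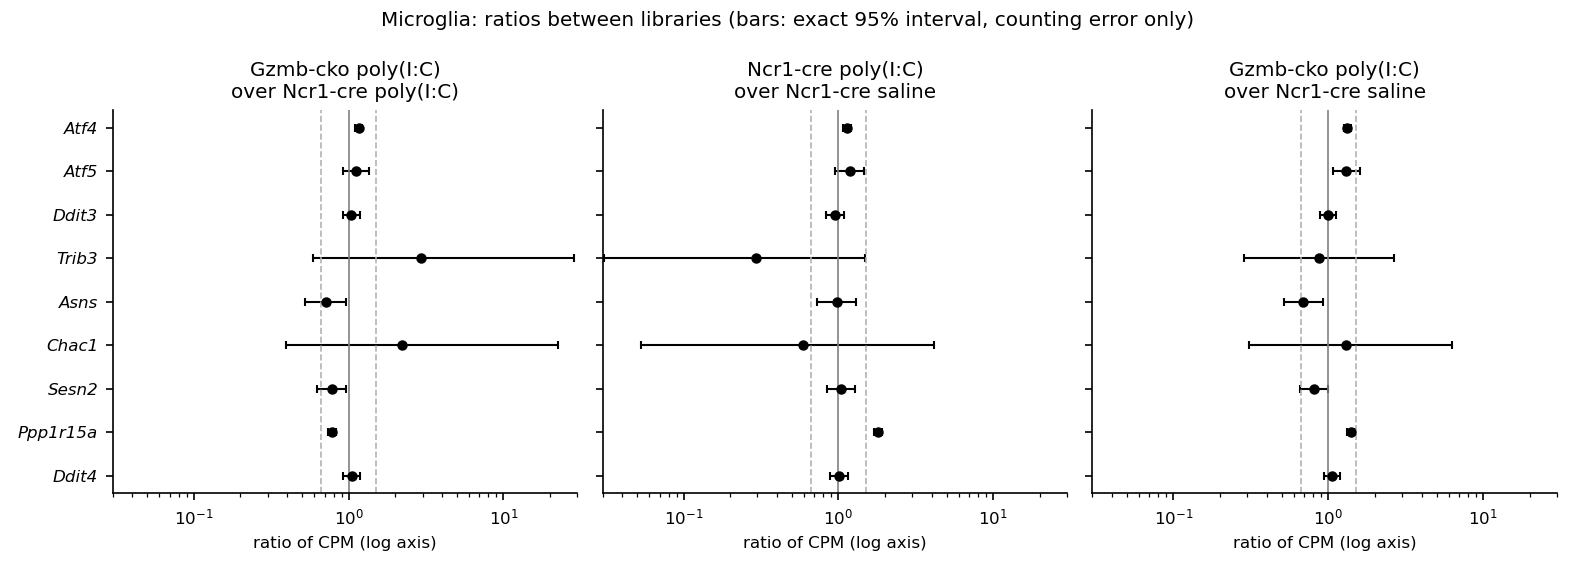
Ratios of CPM in microglia between pairs of libraries (horizontal log axis) for the 9 genes, with exact 95% intervals that cover counting error only and dashed lines at 1.5-fold. Ppp1r15a at 1.79 in the middle panel is the 1 member above 10 CPM beyond a dashed line, and Trib3 and Chac1 have wide intervals.

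Ppp1r15a is also an early response gene, so its level was set beside the share of UMIs from Fos, Fosb, Jun, Junb, Egr1 and Ier2. Microglia of all libraries were divided at 2 limits into 3 ranges of this share. The highest range held 1933 Gzmb-cko, 1785 Ncr1-cre polyIC and 998 saline cells. Ppp1r15a climbed over the lowest, middle and highest range in every library: 43.7, 84.3 and 121 CPM in Gzmb-cko, 49.8, 101 and 150 CPM in Ncr1-cre polyIC, and 38.7, 70.4 and 89.9 CPM in saline. Within the ranges Ppp1r15a was higher in Ncr1-cre polyIC than in saline, by 1.29-fold (1.12 to 1.48), 1.43-fold (1.29 to 1.58) and 1.67-fold (1.496 to 1.88). The ratios within ranges are not corrected for the shift of the median gene, a log2 ratio of 0.17 over all microglia for this pair. The part of immediate early RNA in the difference between libraries was not tested. Atf4 also climbed, but its ratio of Ncr1-cre polyIC to saline within the ranges was 1.0, 1.07 and 0.988, with every interval spanning 1. Its ratio of Gzmb-cko to Ncr1-cre polyIC was 1.26 (1.12 to 1.42), 1.13 (1.03 to 1.24) and 1.22 (1.12 to 1.32). Asns ran the other way, at 4.25, 2.30 and 1.64 CPM in Gzmb-cko, 7.68, 3.60 and 1.28 CPM in Ncr1-cre polyIC, and 6.42, 2.39 and 0.681 CPM in saline.

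**Figure D3:**
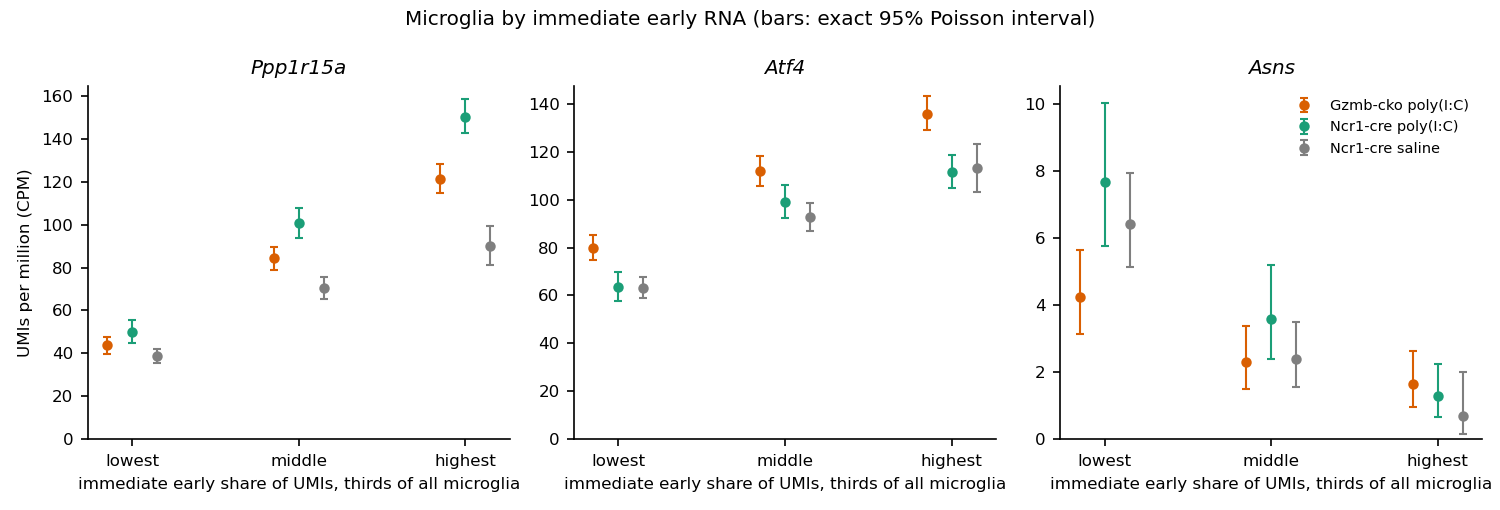
CPM of Ppp1r15a, Atf4 and Asns (vertical axis) in microglia divided by their share of 6 immediate early genes (horizontal axis), with 1 point per library and exact 95% Poisson intervals. Ppp1r15a and Atf4 are higher where the share is higher, and Asns is lower, in each library.

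Upstream of the members, the 4 eIF2α kinases in microglia were all higher in Ncr1-cre polyIC than in saline and all lower in Gzmb-cko than in Ncr1-cre polyIC, with none past 1.5-fold. Of all 7749 genes, 76.1% were higher in the first of these comparisons and 42.2% in the second. The median log2 ratio of the kinases for Ncr1-cre polyIC over saline was 0.34, or 0.17 under TMM scaling. Eif2ak2 encodes PKR, the kinase that double-stranded RNA activates. It was at 63.6 CPM in Gzmb-cko, 67.0 CPM in Ncr1-cre polyIC and 53.5 CPM in saline microglia, a ratio of Ncr1-cre polyIC to saline of 1.25 (1.17 to 1.34). Eif2ak3, which encodes the endoplasmic reticulum sensor PERK, had a ratio of 1.47 (1.24 to 1.74) for that pair, Eif2ak1 (HRI) 1.29 (1.16 to 1.43) and Eif2ak4 (GCN2) 1.24 (1.09 to 1.41). The bZIP partner Cebpa was at 68.8 CPM in Gzmb-cko, 79.9 CPM in Ncr1-cre polyIC and 45.2 CPM in saline, and Cebpb at 199, 241 and 157 CPM in the same libraries. Txnip, a thioredoxin inhibitor, was at 239, 336 and 178 CPM there. For the ATF6 and IRE1 arms, the other arms of the unfolded protein response, 15 genes were measured. All 15 were higher in Ncr1-cre polyIC than in saline, 2 of them past 1.5-fold, beside 76.1% of all genes higher. Their median log2 ratio was 0.36, or 0.19 under TMM scaling. Hspa5, the chaperone BiP, was at 559 CPM in Gzmb-cko, 943 CPM in Ncr1-cre polyIC and 610 CPM in saline microglia. Pdia4, a disulfide isomerase, was at 109, 135 and 84.6 CPM in the same libraries. Among immediate early and heat shock genes, 14 of 15 above 10 CPM were higher in Ncr1-cre polyIC than in saline, 9 past 1.5-fold, against 76.1% and 4.07% of all genes, led by Fos (ratio 2.23), Zfp36 (2.20), Ier2 (1.81) and Junb (1.79). The heat shock gene Hsph1 had a ratio of Gzmb-cko to Ncr1-cre polyIC of 0.578, and the mitotic gene Nusap1 a ratio of Ncr1-cre polyIC to saline of 0.649. None of 13 tRNA synthetases and none of 5 measured serine and one-carbon genes passed 1.5-fold in either comparison with Ncr1-cre polyIC.

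Ppp1r15a, as a share of class totals, was also higher in Ncr1-cre polyIC than in saline in other myeloid cells. Border macrophages had 71.3 CPM in Gzmb-cko, 73.7 CPM in Ncr1-cre polyIC and 49.6 CPM in saline, with a ratio of Ncr1-cre polyIC to saline of 1.48 (1.29 to 1.71). Unlike in microglia, the ratio of Gzmb-cko to Ncr1-cre polyIC was 0.968 (0.864 to 1.09). That the 2 classes differ was not tested. Monocytes had 53.3 CPM in Gzmb-cko, 44.7 CPM in Ncr1-cre polyIC and 31.1 CPM in saline. The ratio of Ncr1-cre polyIC to saline was 1.44 (1.08 to 1.93) in monocytes, and 1.23 (0.971 to 1.56) in choroid plexus. For this pair the median gene above 10 CPM had a log2 ratio of 0.17 in border macrophages, 0.19 in monocytes and 0.13 in choroid plexus. The ratios of Ppp1r15a given here are not corrected for that shift. Ddit4 in border macrophages was at 8.62 CPM in Gzmb-cko, 7.61 CPM in Ncr1-cre polyIC and 13.3 CPM in saline, where both polyIC libraries lay below saline. Neutrophil RNA was at 931, 52.5 and 2026 CPM in the border macrophages of those libraries, erythroid RNA at 10349, 38627 and 55017 CPM, and border macrophage markers at 7861, 8958 and 5300 CPM. Without cells with hemoglobin or neutrophil RNA, the ratio of Ddit4 was 0.577 for Ncr1-cre polyIC over saline and 0.653 for Gzmb-cko over saline. In monocytes Ddit3 was at 15.1 CPM in Gzmb-cko, 6.23 CPM in Ncr1-cre polyIC and 10.4 CPM in saline, and its ratio of Gzmb-cko to Ncr1-cre polyIC was 2.42 (1.31 to 4.65), on 32 and 17 UMIs. Monocytes held neutrophil RNA at 6034 CPM in Gzmb-cko, 8428 CPM in Ncr1-cre polyIC and 18290 CPM in saline, summed over 8 genes, and its part in these ratios was not tested.

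Outside microglia, the members that averaged 10 CPM or more over the 3 libraries of a class were likewise read against all genes. In border macrophages none of the 3 members with such a mean passed 1.5-fold in any pair. There 0.913% of genes were higher and 3.16% lower in Gzmb-cko than in Ncr1-cre polyIC, 8.63% higher and 1.69% lower in Ncr1-cre polyIC than in saline, and 2.31% higher and 1.48% lower in Gzmb-cko than in saline. Ddit4 averaged 9.84 CPM in border macrophages, so these counts leave it out although it passed 1.5-fold downward in both polyIC libraries over saline. Its ratio was 0.573 (0.389 to 0.829) for Ncr1-cre polyIC over saline and 0.649 (0.502 to 0.840) for Gzmb-cko over saline. In monocytes 4 members were measured. Ddit3 was past 1.5-fold upward in Gzmb-cko over Ncr1-cre polyIC, where 3.13% of genes were higher and 5.73% lower. It was past it downward in Ncr1-cre polyIC over saline at 0.602 (0.308 to 1.14), on 17 and 27 UMIs. That interval spans 1, and in this pair 11.8% of genes were higher and 4.2% lower. Ppp1r15a passed 1.5-fold in Gzmb-cko over saline, with a ratio of 1.72 (1.28 to 2.31), where 7.89% were higher and 4.13% lower.

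In choroid plexus and neurons, many genes passed the fold in every pair. In choroid plexus none of 4 measured members passed it between Gzmb-cko and Ncr1-cre polyIC, where 9.37% of genes were higher and 21.9% lower. Atf5 passed it in Ncr1-cre polyIC over saline at 1.54 (0.911 to 2.70), where 10.3% were higher and 7% lower, and in Gzmb-cko over saline at 1.74 (1.003 to 3.10), where 24.4% were higher and 23% lower. In neurons 6 members were measured. In Gzmb-cko over Ncr1-cre polyIC, Atf5 was past it downward at 0.478 (0.255 to 0.838), on 15 and 78 UMIs, and Asns at 0.264 (0.0821 to 0.662), on 5 and 47 UMIs. Ddit4 was past it upward at 1.54 (0.952 to 2.46), with an interval that spans 1. In this pair 11.8% of genes were higher and 13.6% lower. In Ncr1-cre polyIC over saline, Atf5 was past it upward at 1.86 (1.04 to 3.55), on 78 and 14 UMIs. The intervals of Asns, at 1.74 (0.842 to 4.04), and of Ppp1r15a, at 0.624 (0.248 to 1.70) on 15 and 8 UMIs, span 1. In this pair 21.1% of genes were higher and 14.3% lower. In Gzmb-cko over saline, Ddit4 was at 1.97 (1.004 to 4.11) and Asns at 0.46 (0.121 to 1.53), where 17.3% were higher and 15.3% lower.

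Differences between cell classes, unlike those between groups, have 3 libraries behind them. UMIs were summed per class and library and each class was tested against microglia with edgeR's quasi-likelihood test, with the library as a term. Cell class was assigned without the members, and 7 of the 9 passed the filter on low counts. Trib3 and Chac1 did not pass. The libraries differ in treatment, so their spread is not that of replicates of 1 condition.

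All 7 tested members were called in neurons. Of these, 4 were higher and 3 lower in neurons, where 29.9% of 12724 genes were higher and 30.4% lower. Atf5 was at 23.0 CPM in Gzmb-cko, 48.1 CPM in Ncr1-cre polyIC and 25.9 CPM in saline neurons, with a mean of 32.3 ± 13.7 CPM against 7.22 ± 0.968 CPM in microglia (SD, n = 3). The log2 fold change was 1.91 ± 0.24 (SE, edgeR adjusted p = 1.14e-05), and the 3 neuron values lay above all 3 microglial ones. Asns was at 7.66, 29.0 and 16.7 CPM in the neurons of those libraries, with a log2 fold change of 2.16 ± 0.45 (SE, edgeR adjusted p = 0.000891). Without the Ncr1-cre polyIC library, which held most neurons, the Asns difference was 1.51 (edgeR adjusted p = 0.0841). Ddit3 averaged 35.1 ± 5.15 CPM in neurons and 17.7 ± 0.439 CPM in microglia (SD, n = 3), with an edgeR adjusted p of 0.00535, or 0.0698 without the Ncr1-cre polyIC library.

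Ppp1r15a ran opposite, at 13.8 CPM in Gzmb-cko, 9.25 CPM in Ncr1-cre polyIC and 14.8 CPM in saline neurons. It averaged 12.6 ± 2.96 CPM in neurons and 82.2 ± 23.3 CPM in microglia (SD, n = 3), a log2 fold change of -3.16 ± 0.24 (SE, edgeR adjusted p = 1.13e-07). Immediate early and heat shock genes were lower in neurons too, for 13 of 17 tested. The call of higher Ddit4 held in 4 of 9 other analyses, and those of lower Atf4 and lower Sesn2 in 3 of 9 each. Atf4 averaged 89.4 ± 10.1 CPM in neurons and 94.9 ± 13.3 CPM in microglia (SD, n = 3), and its log2 difference was -0.09 when class totals were used without scaling factors. Chac1 had 2 UMIs in Gzmb-cko, 7 in Ncr1-cre polyIC and 0 in saline neurons, and Trib3 had none. The neurons held microglial marker RNA at 562 to 2348 CPM, summed over 10 genes, against 11311 to 14550 CPM in microglia, and neutrophil RNA at 2597 CPM in Gzmb-cko, 56.1 CPM in Ncr1-cre polyIC and 4124 CPM in saline neurons. Of 10 cycle genes 8 were higher in neurons. Their part in the differences was not tested.

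Choroid plexus epithelium stood out for Atf4, at 23.1 CPM in Gzmb-cko, 25.2 CPM in Ncr1-cre polyIC and 33.8 CPM in saline. Every value was below those of microglia, with a log2 fold change of -1.35 ± 0.16 (SE, edgeR adjusted p = 3.21e-06). Atf5 was higher in choroid plexus than in microglia by a log2 fold change of 1.05 ± 0.22 (SE, edgeR adjusted p = 0.000768), and both calls held in all 9 other analyses. Asns was higher by 1.20 (edgeR adjusted p = 0.0231), with 9.24 CPM in Gzmb-cko, 4.0 CPM in Ncr1-cre polyIC and 4.82 CPM in saline, but not without the Gzmb-cko library (edgeR adjusted p = 0.231). Ppp1r15a was lower by a log2 fold change of 0.43 (edgeR adjusted p = 0.0252), a call that held in 5 of 9 other analyses. In all, 2 members were higher and 2 lower in choroid plexus, where 37% of genes were higher and 36.7% lower than in microglia. Ttr alone took 188210 to 284889 CPM there. With class totals alone, 3667 genes were higher and 6115 lower, against 4707 and 4665 with TMM scaling.

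Monocytes had more Ddit4 than microglia, at 26.7 ± 5.97 CPM against 18.2 ± 0.580 CPM (SD, n = 3), with a log2 fold change of 0.78 ± 0.21 (SE, edgeR adjusted p = 0.00779, or 0.0579 without the Gzmb-cko library). Ppp1r15a was lower in monocytes, at 43.0 ± 11.2 CPM against 82.2 ± 23.3 CPM in microglia (SD, n = 3; edgeR adjusted p = 0.00368, or 0.104 without the Ncr1-cre polyIC library). Ddit3 was also lower in monocytes (edgeR adjusted p = 0.0417), a call that held in 3 of 9 other analyses. In all, 1 member was higher and 2 were lower in monocytes, where 21.6% of genes were higher and 23.2% lower. Border macrophages, which held the microglial marker RNA given above, had the fewest genes called against microglia, with 3.84% higher and 1.24% lower. Of the members, only Ddit4 was called there, lower by a log2 fold change of 0.93 with an edgeR adjusted p of 0.0138. That call was lost without the Gzmb-cko library (edgeR adjusted p = 0.161) and without the Ncr1-cre polyIC library (edgeR adjusted p = 0.317).

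**Figure D4:**
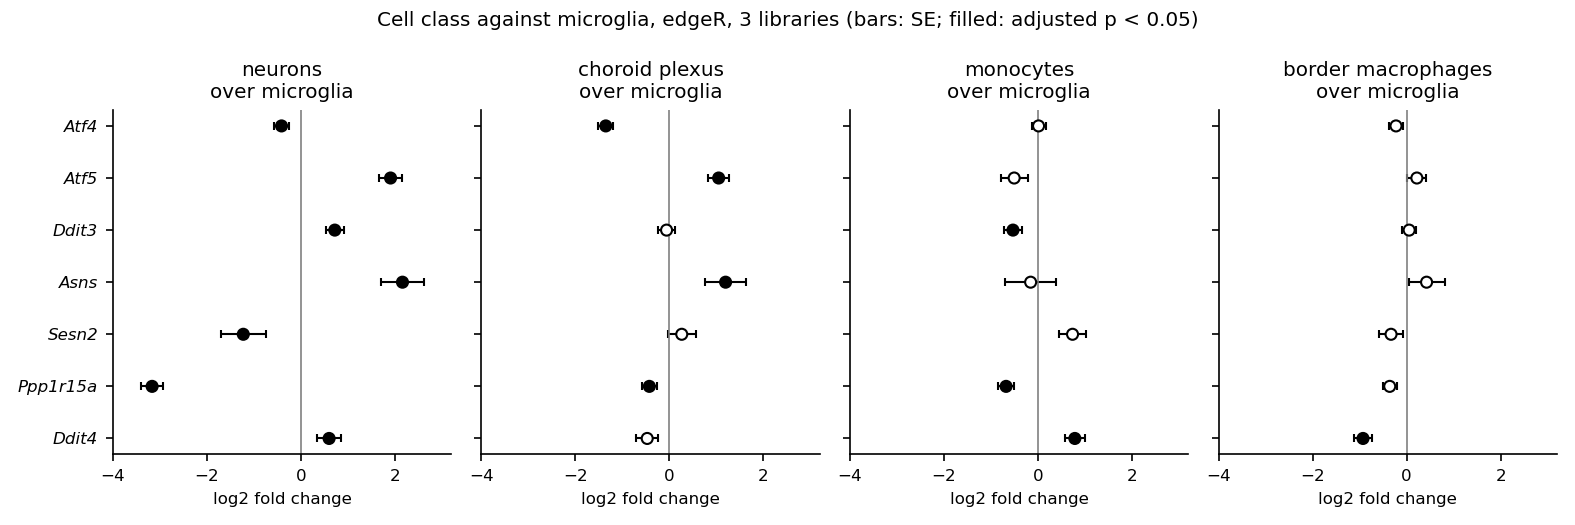
Log2 fold change (horizontal axis, bars for SE) of the 7 tested members in each cell class over microglia, over 3 libraries, with filled points where the edgeR adjusted p is under 0.05. Ppp1r15a lies farthest to the left in neurons at -3.16, and Atf5 and Asns are to the right of 0 in both neurons and choroid plexus.

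Other genes of the pathway are read here against the 29.9% of all genes that were higher and the 30.4% that were lower in neurons. Genes of the ATF6 and IRE1 arms, a list that holds Atf6 itself, were lower in neurons for 15 of 16 and higher for none. Hspa5 was at 264 ± 77.3 CPM in neurons and 704 ± 208 CPM in microglia (SD, n = 3). Of 8 bZIP partners 6 were lower, among them Cebpb at 39.0 ± 22.6 CPM in neurons against 199 ± 42.0 CPM in microglia (SD, n = 3), and Atf2 was higher. Among the kinases Eif2ak2 (PKR) averaged 10.7 ± 4.91 CPM in neurons and 61.4 ± 6.98 CPM in microglia (SD, n = 3), a log2 fold change of -3.08. Eif2ak4 (GCN2) was lower too, with a log2 fold change of -1.25 (edgeR adjusted p = 0.000834), while Eif2ak1 and Eif2ak3 had log2 differences of 0.01 and 0.05. Of 10 serine, one-carbon and proline genes 3 were higher and 3 lower, shares like those of all genes. Aldh1l2, Pycr1 and Aldh18a1 were higher in neurons by log2 fold changes of 2.77, 2.20 and 1.62, whereas Phgdh, Psat1 and Shmt2, of serine and glycine synthesis, were lower. Of 13 tRNA synthetases 3 were higher (Sars, Yars and Gars) and 1 was lower (Aars), both below the shares of all genes.

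**Figure D5:**
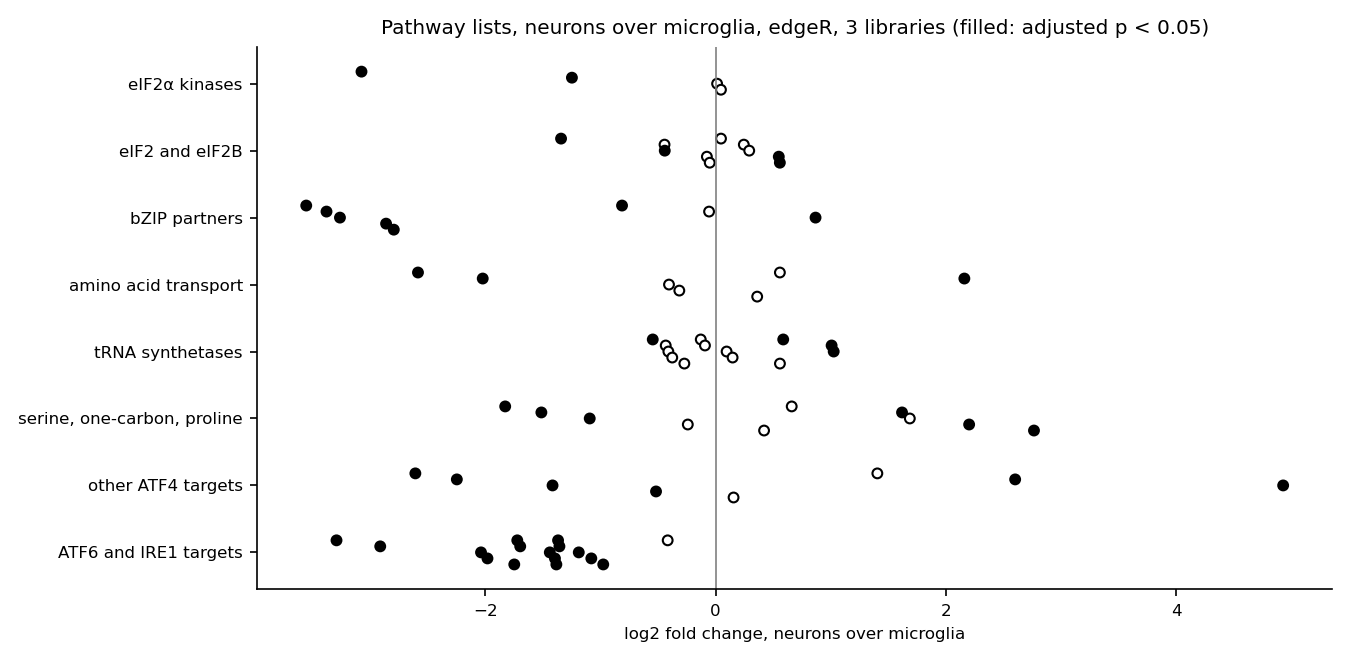
Log2 fold change of single genes in neurons over microglia (horizontal axis) by pathway list (vertical axis), over 3 libraries, with filled points where the edgeR adjusted p is under 0.05. All 16 genes of the row labelled ATF6 and IRE1 targets, which holds Atf6 itself, lie left of 0, from -3.29 to -0.42. The serine and one-carbon genes lie on both sides of 0.

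Over the 15 profiles of 5 classes in 3 libraries, the members did not move as 1 group. Pearson's r of log2(CPM + 1) was 0.90 between Atf5 and Asns and -0.74 between Atf5 and Ppp1r15a, as a description, since profiles of 1 library share cells' source and depth. Among 8357 genes, the profiles most like Atf5 included those of Fbxo21 (r of 0.99) and Ube2e3 (r of 0.97). The most like Atf4 were Vars, Arhgef2 and Sun2, with r of 0.98. For Ppp1r15a they were Ctso, Rnaset2a and Itpkb, with r of 0.94 to 0.95. For Ddit3 the order began with Znhit6, Git1 and Clasp2, and for Ddit4 with Tspan13, Usp3 and Ywhaz. A mean was also taken over the standardised profiles of the members that average 10 CPM or more, not of all 9. Those most like it were Ldb1, Csnk1e, Exog, Hnrnpdl and Tubb2a, with r of 0.94 to 0.96.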

How the data were processed

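Per the file headers the deposited matrices are raw UMI counts per gene and barcode, and Cell Ranger 5.0.0 is named there. Version 3.0.1 of that program, STAR and mm10 appear in the submitters' processing notes. Barcodes arrived as called cells. Doublets were removed with Scrublet in scanpy 1.11.5 at an expected 0.8% per 1000 barcodes. Cells that met more than 1 class definition were left out. UMIs were summed per class and library as CPM, with exact 95% intervals (Poisson for levels, conditional binomial for ratios). Class comparisons used edgeR 4.0.16 (TMM, filterByExpr, quasi-likelihood test, Benjamini-Hochberg adjustment over all genes tested), with SEs derived from the F statistic, and DESeq2 1.42.0 as an alternative. These tests, the exclusion of cells with hemoglobin or neutrophil RNA and the ranges of immediate early share were chosen after the data were seen. The scripts were tested on simulated data. The members and gene lists were chosen with earlier results of these data known. Named were all 9 members, the 4 eIF2α kinases, per list and comparison at most 4 genes past 1.5-fold in microglia, and the genes most like a member that averages 10 CPM or more (3 each, 5 for the mean). Genes other than members and kinases had a mean of at least 10 CPM. One gene of the last kind is not reported here. Genes named between classes were chosen after their values were seen. Sesn2 shares strand and position with Gm12981, so its counts are uncertain.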

Additional observations from a re-analysis of the deposited data

Results flagged for a closer look

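Several members had ratios on opposite sides of 1 in different cell classes under the same comparison, with intervals that exclude 1 and cover counting error only. The differences between classes were not tested. Asns had a ratio of Gzmb-cko to Ncr1-cre polyIC of 2.31 in choroid plexus, against 0.711 in microglia and 0.264 in neurons. The choroid plexus value rests on 28 and 17 UMIs, and the neuron value on 5 and 47. Atf4 had a ratio of Ncr1-cre polyIC to saline of 1.14 (1.08 to 1.21) in microglia and 0.746 (0.559 to 0.998) in choroid plexus. For that pair the median gene had a log2 ratio of 0.17 in microglia and 0.13 in choroid plexus. Under TMM scaling, given above, the microglial ratio lay closer to 1. The ratio of Atf4 for Gzmb-cko over saline was 1.32 in microglia and 1.19 in border macrophages, against 0.684 in choroid plexus. Choroid plexus cells held microglial marker RNA at 702 CPM in Gzmb-cko, 1078 CPM in Ncr1-cre polyIC and 1888 CPM in saline, neutrophil RNA at 145, 136 and 2172 CPM, and erythroid RNA at 5793, 11822 and 30789 CPM. Their median UMI counts were 2634, 2935.5 and 5038. Without cells with hemoglobin or neutrophil RNA, the choroid plexus ratio of Atf4 was 0.720 for Ncr1-cre polyIC over saline and 0.645 for Gzmb-cko over saline. The part of microglial RNA and of depth was not tested. Ddit4 had a ratio of Gzmb-cko to saline of 1.97 in neurons, on 31 and 13 UMIs, and 0.649 in border macrophages.

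Cells that met no class definition, and in which S100a8 and S100a9 made up at least 1% of UMIs, also carried member RNA. They numbered 111 in Gzmb-cko, 395 in Ncr1-cre polyIC and 239 in saline. Sesn2 was at 24.6 CPM in Gzmb-cko, 20.5 CPM in Ncr1-cre polyIC and 8.69 CPM in saline, with ratios to saline of 2.83 (1.31 to 6.21) and 2.36 (1.23 to 4.77). Ddit3 was at 14.5, 26.7 and 7.45 CPM in those libraries, with a ratio of Ncr1-cre polyIC to saline of 3.58 (1.86 to 7.46). These levels rest on 17, 33 and 14 UMIs of Sesn2 and 10, 43 and 12 UMIs of Ddit3. The median UMI count of the cells was 4796, 3622 and 5486 in the same libraries. Barcodes under 3133 UMIs were present in the polyIC libraries and absent from saline. The part of depth in these ratios was not tested.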

How the results depend on the processing

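No paired analysis between groups was possible because each group has 1 library. In microglia, the counts of members past 1.5-fold equalled the reported ones in 72 of 72 cases, over 12 other settings. The median log2 ratio of the measured members for Ncr1-cre polyIC over saline was 0.51 when a mean of at least 50 CPM was required, which leaves 2 members, and -0.06 under TMM scaling. Of 995 ratios of single members 969 stayed within their counting interval. The ratio of Asns for Gzmb-cko over saline turned to 1.15 with the mean of per-cell CPM, 1.39 with the stricter microglial definition and 1.22 without cycling cells; the cause was not tested. A stricter cell filter moved 11 of 135 levels beyond their interval.

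Among class comparisons, members lower in neurons numbered 3, against 1 by DESeq2, with median of ratios scaling and with class totals alone, and members higher in monocytes numbered 2 by DESeq2 and with median of ratios scaling, against 1. Members lower in monocytes numbered 2, and 1 by DESeq2, without a library term, with median of ratios scaling and without cells with hemoglobin or neutrophil RNA. In choroid plexus 2 were lower, against 1 by DESeq2, without a library term and with median of ratios scaling, and 4 with class totals alone, where 1 rather than 2 was higher. Leaving out 1 library gave 1 to 5 members higher and 1 to 3 lower in neurons, 1 to 2 higher and 1 to 2 lower in choroid plexus, 0 to 1 higher and 0 to 2 lower in monocytes, and 0 to 1 lower in border macrophages. Class totals alone shifted the median gene to log2 0.27 in neurons and -0.48 in choroid plexus, against -0.04 in each with TMM. They gave 4953 genes higher and 2996 lower in neurons, against 3799 and 3863, and 1929 and 4332 in monocytes, against 2743 and 2956. Sparse genes (Trib3, Chac1) are limited by depth, and the small neuron class by cell number.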

Other observations

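In the cells of no class with S100a8 and S100a9 RNA, Asns was at 36.2 CPM in Gzmb-cko, 26.1 CPM in Ncr1-cre polyIC and 22.4 CPM in saline, against 2.75, 3.87 and 3.98 CPM in the microglia of those libraries. Ppp1r15a was at 18.8, 8.07 and 9.94 CPM in these cells, against 82.3, 105 and 58.8 CPM in microglia. Chac1 had 1, 8 and 3 UMIs there, and 6, 2 and 4 UMIs in the far more numerous microglia. Atf4 was at 66.7 CPM in Gzmb-cko, 74.5 CPM in Ncr1-cre polyIC and 73.3 CPM in saline. These cells were singled out after the data were seen, and 1 library per group allows no test between groups.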
